A study of Mus musculus with 6 samples.

Results

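Insulin signalling and glucose uptake were examined through 10 genes of the pathway: Insr, Irs1, Irs2, Pik3r1, Akt2, Tbc1d1, Tbc1d4, Slc2a4, Slc2a1 and Hk2. They were chosen by symbol, and each matched 1 of the 48795 genes of the count table. All 10 passed the filter on low counts that left 13628 genes for testing, with between 46 and 19232 counts per library. The data are read counts per gene from quadriceps of male C57BL/6 mice aged 20 weeks. The MERKO group (3 libraries) carried a muscle-specific loss of the estrogen receptor ERα (gene Esr1), labelled Er_alpha-/-, and the control group (3 libraries) was wildtype. The promoter that drives the muscle-specific deletion is not named in the labels. Nothing says that the libraries of a group came from separate animals, so each p-value rests on a spread between libraries that may be technical.

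The pathway carries glucose into the muscle fibre. Insulin binds its receptor, the receptor phosphorylates docking proteins of the IRS family, and these recruit PI3-kinase, whose lipid product brings the kinase AKT2 to the membrane. AKT2 phosphorylates the Rab GTPase-activating proteins TBC1D4 (also called AS160) and TBC1D1, which releases vesicles loaded with the transporter GLUT4 to the fibre surface, and hexokinase II then traps the glucose as glucose 6-phosphate. Most of this control acts on protein location and phosphorylation, which transcript counts do not measure.

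Esr1 checked the labels. Its levels in MERKO 1 to 3 were 6.75, 9.43 and 7.46 CPM (counts put on the same library size by TMM factors), against 25.1, 34.1 and 31.1 CPM for control 1 to 3. Its log2 fold change of MERKO over control was -1.95 (SE 0.16, adjusted p = 0.0262, edgeR quasi-likelihood test). Leaving out MERKO 1, MERKO 2, control 2 or control 3 moved this adjusted p above 0.05, to 0.102, 0.0576, 0.109 and 0.0632.

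The libraries held from 14935532 to 44282448 counts. An rRNA gene model took between 0.0433% and 32.4% of them, and genes of mitochondrial DNA took 4.90% to 11.02%. The 8 muscle fibre markers summed to between 104498 and 148788 CPM in every library, so the list as a whole was abundant throughout. Single genes of the list varied more. Myh1 had 10132, 2307 and 3526 CPM in MERKO 1 to 3 and 6083, 2021 and 701 CPM in control 1 to 3. Myh2 had 3050, 164 and 722 CPM in MERKO and 1514, 56.7 and 38.3 CPM in control. Of the 8 log2 fold changes, 4 were positive and 4 negative. MERKO 1 and control 1 stood apart from the other 4 libraries in 7 slow-fibre markers, which summed to 511 and 524 CPM there and to between 35.9 and 47.1 CPM elsewhere. The 8 adipocyte markers summed to 112 to 144 CPM in MERKO and to 146, 476 and 222 CPM in control 1 to 3. Fabp4 made up most of each MERKO sum, at 115, 72.3 and 99.5 CPM, and had a log2 fold change of -0.37. The other adipocyte markers tested had log2 fold changes from -3.01 (Lep) to -2.07 (Adipoq). The 7 tendon markers summed to 388, 197 and 81.0 CPM in MERKO 1 to 3 and to 82.1, 29.6 and 70.0 CPM in control 1 to 3, with 6 of 7 at a positive log2 fold change (3.08 for Kera). Sums of 6 erythroid markers overlapped, at 88.9 to 119 CPM in MERKO and 91.6 to 162 CPM in control. None of the genes on these marker lists passed an adjusted p of 0.05 between genotypes in the edgeR test. In whole muscle, fewer cells of a type and less RNA per cell cannot be told apart.

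The promoters of the members were read first, because the deleted gene encodes a transcription factor. ERα binds DNA at the estrogen response element, searched here as GGTCANNNTGACC. This is a palindrome of GGTCA, which is the half-site AGGTCA without its leading A. The RefSeq promoter table (GRCm38.p6) held 13 annotated starts for 8 of the members, and no entry for Insr or Slc2a4. In the 250 bases before these starts, searched on both strands, the full element was found in 0 of 13, and so were the half-site and the estrogen-related receptor element TCAAGGTCA, which contains the half-site. Among all 32851 promoters of this length, 0.0639% held the full element, 14.0% the half-site and 0.387% the longer element. The GC box GGGCGG, a binding site of the SP1 family, was found in 8 of 13 windows against 32.7% of all promoters. A match of letters is a description, and a window without one says nothing of binding elsewhere.

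Sequences are shown for the member with the lowest p (Pik3r1, with both starts, since its count sums them), the member whose groups did not overlap (Akt2, its most upstream start) and the second most abundant member (Hk2). Each is the 250 bases before the start, 5′ to 3′ on the gene's strand, with GC boxes on either strand in capitals.
Pik3r1, upstream start, minus strand, chr13:101768218-101768467: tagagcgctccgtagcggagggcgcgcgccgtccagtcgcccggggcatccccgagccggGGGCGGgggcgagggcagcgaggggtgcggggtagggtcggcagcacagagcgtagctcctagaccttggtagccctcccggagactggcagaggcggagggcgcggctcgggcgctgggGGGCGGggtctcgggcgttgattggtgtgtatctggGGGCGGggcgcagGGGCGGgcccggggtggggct
Pik3r1, internal start, minus strand, chr13:101692631-101692880: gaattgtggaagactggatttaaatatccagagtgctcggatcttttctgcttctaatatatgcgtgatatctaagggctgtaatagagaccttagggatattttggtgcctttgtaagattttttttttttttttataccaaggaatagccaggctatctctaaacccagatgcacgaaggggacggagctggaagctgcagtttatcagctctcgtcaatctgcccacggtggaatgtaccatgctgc
Akt2, upstream start, plus strand, chr7:27591302-27591551: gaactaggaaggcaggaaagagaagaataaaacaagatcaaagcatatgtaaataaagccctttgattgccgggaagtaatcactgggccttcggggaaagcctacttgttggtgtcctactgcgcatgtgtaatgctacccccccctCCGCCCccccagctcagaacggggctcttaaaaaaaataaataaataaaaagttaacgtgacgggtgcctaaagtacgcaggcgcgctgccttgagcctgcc
Hk2, minus strand, chr6:82774455-82774704: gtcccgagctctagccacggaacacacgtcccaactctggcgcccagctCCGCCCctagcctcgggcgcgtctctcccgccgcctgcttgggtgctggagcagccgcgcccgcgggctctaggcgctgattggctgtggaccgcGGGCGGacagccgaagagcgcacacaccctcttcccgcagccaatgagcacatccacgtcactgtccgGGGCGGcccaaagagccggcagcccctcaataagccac
The 2 starts of Pik3r1 differ in base composition, with 76.4% G and C before the upstream start and 42.4% before the internal one, the highest and lowest of the 13 windows, beside a median of 52.4% over all promoters. The upstream window of Pik3r1 holds 4 GC boxes and the internal one 0, whereas Akt2 has 1 and Hk2 has 3.

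Levels of the members were compared per length, as CPM per kilobase of merged exons averaged over the 6 libraries (SD, n = 6). Slc2a4, which encodes the insulin-responsive transporter GLUT4, was the most abundant at 113 ± 8.91, above 98.7% of the genes tested. Hk2, which encodes the main hexokinase of muscle, followed at 54.5 ± 9.18, and Akt2 at 17.9 ± 1.87. The ranges of Slc2a4, Hk2 and Akt2 did not overlap. Next came Tbc1d1 at 10.5 ± 2.84, Pik3r1 at 8.67 ± 1.49, Tbc1d4 at 6.78 ± 1.05, Insr at 5.72 ± 0.59, Irs1 at 5.02 ± 1.31 and Irs2 at 3.46 ± 0.42. From Akt2 down to Irs2, neighbours in this order overlapped in range. Within a library Pik3r1 nevertheless lay above Tbc1d4, Tbc1d4 above Insr and Irs1 above Irs2 in 6 of 6, while Tbc1d1 lay above Pik3r1 in 4 of 6. Slc2a1, which encodes the widely expressed transporter GLUT1, was lowest at 1.32 ± 0.26, below every value of Irs2, and above 40.1% of the genes tested. With the longest transcript as the length, Pik3r1 (12.3) moved above Tbc1d1 (12.03) and Insr (8.40) above Tbc1d4 (8.02), and the other ranks were kept.

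**Figure D1:**
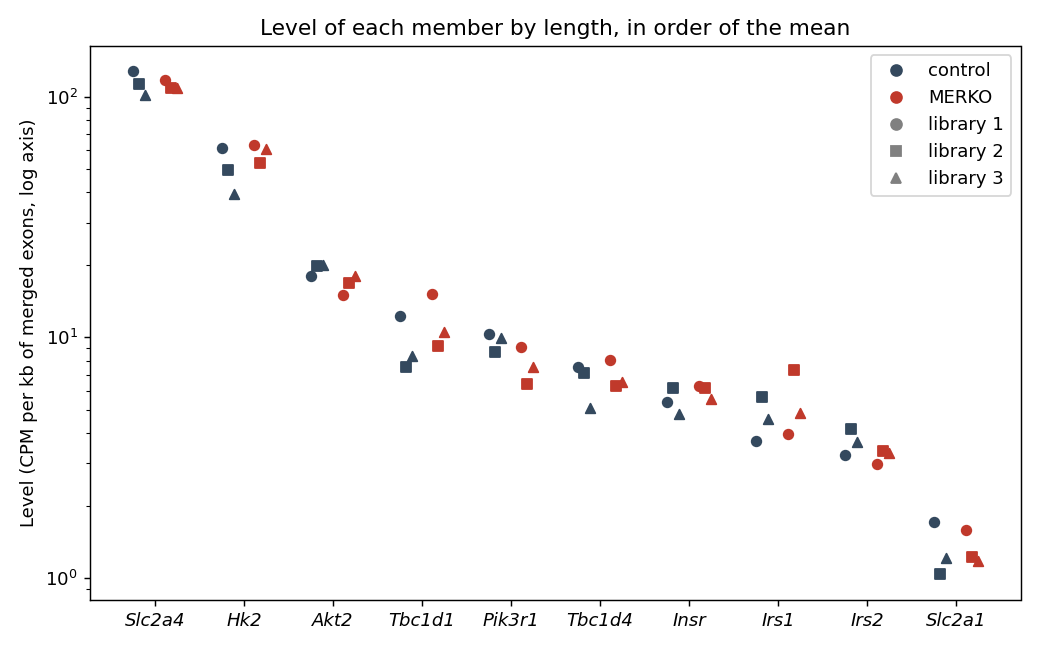
Level of each member in CPM per kb of merged exons (log axis), with 1 point per library, control in dark blue and MERKO in red, and the marker shape giving the replicate number. Slc2a4 lies near 113 and Slc2a1 near 1.32, and the control (left) and MERKO (right) points overlap in height in every gene but Akt2.

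Between genotypes, 0 of the 10 members passed the threshold of an adjusted p of 0.05 over all genes, against 0.00734% of all genes tested (Esr1 alone). DESeq2 and limma-voom also called 0. At an unadjusted p under 0.05 there was 1 member, Pik3r1, or 10% against 7.04% of all genes tested. This count was 3 without control 1, with the replicate number as a block, and without both MERKO 1 and control 1, and it was 0 without MERKO 2, MERKO 3 or control 3. With all libraries, the count was also 0 without composition factors and with a filter of at least 1 CPM in 3 libraries. The groups did not overlap in 1 member, Akt2, against 13.3% of all genes tested. Of the members, 6 had a positive and 4 a negative log2 fold change, with a median of 0.05 beside 0.01 over all genes. All 10 values lay between -0.33 and 0.32. The 95% intervals ran from 0.637-fold to 1.80-fold at their outermost.

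**Figure D2:**
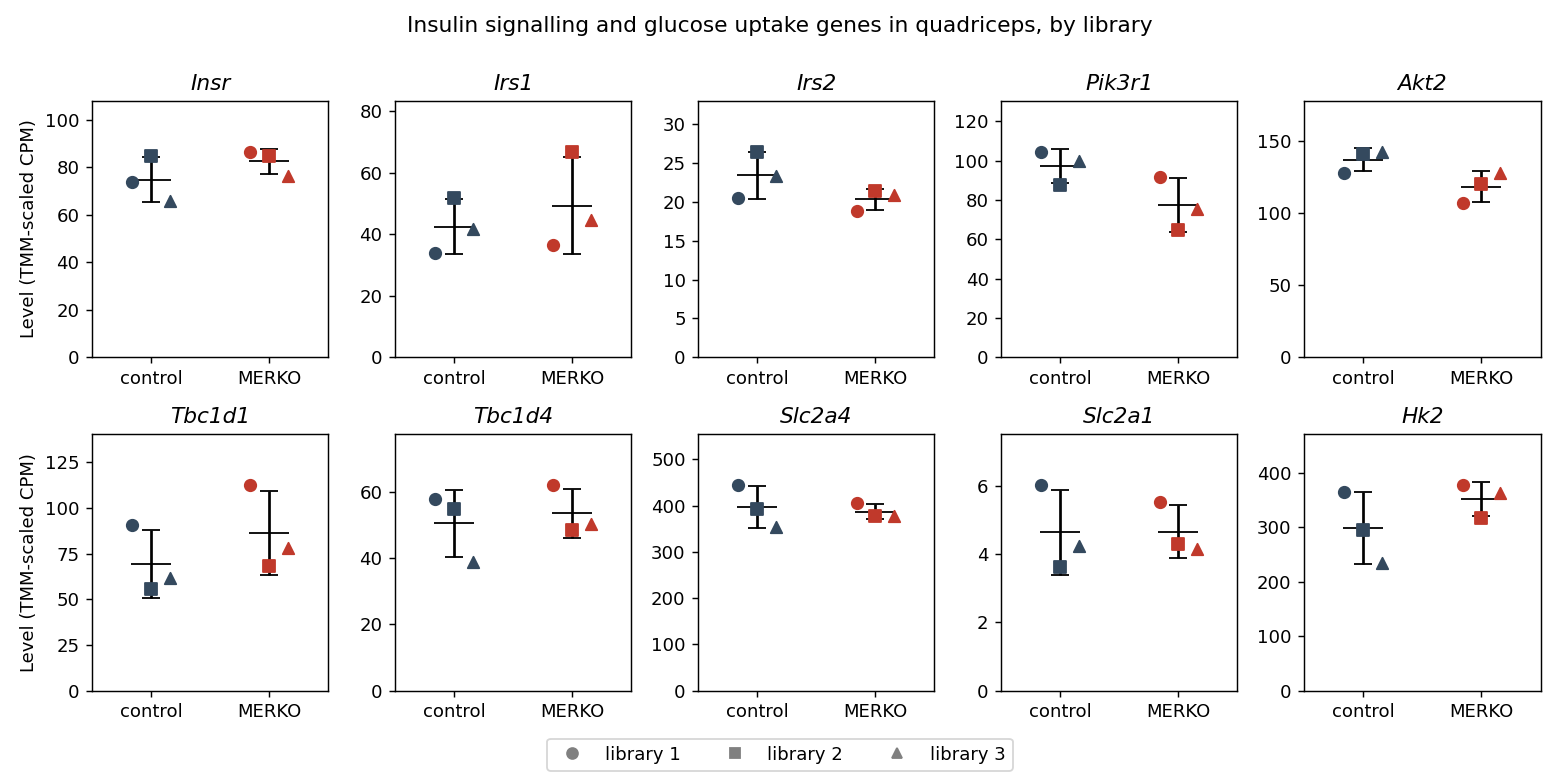
Level of each member in scaled CPM (axes from 0) in the 3 control and 3 MERKO libraries, with the mean and SD as black bars and the marker shape giving the replicate number. The groups overlap in every panel but that of Akt2, where the highest MERKO library (127.8) lies just under the lowest control library (128.05).

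The receptor gene Insr (ENSMUSG00000005534.10, GRCm38 chromosome 8, 3122061 to 3279617, minus strand) had 86.4, 84.6 and 76.4 CPM in the MERKO libraries (1 to 3 in turn, here and below) against 73.8, 84.8 and 65.8 CPM in the controls. Control 2 lay within the range of MERKO, so the groups overlapped. Means were 82.5 ± 5.37 and 74.8 ± 9.53 CPM (SD, n = 3 each), with a log2 fold change of 0.14 (95% interval -0.12 to 0.41, adjusted p = 0.799, edgeR).

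The docking protein genes Irs1 and Irs2 had differences of opposite sign. Irs1 (ENSMUSG00000055980.2, chromosome 1, 82233101 to 82291416, minus strand) had 36.5, 66.8 and 44.6 CPM in the MERKO libraries against 34.1, 51.8 and 41.7 CPM in the controls. The second library was the highest in both genotypes, and the groups overlapped. The log2 fold change of Irs1 was 0.21 (-0.32 to 0.74, adjusted p = 0.854, edgeR), and it was -0.06 without MERKO 2. Irs2 (ENSMUSG00000038894.7, chromosome 8, 10984681 to 11008458, minus strand) had 18.8, 21.4 and 20.8 CPM in the MERKO libraries against 20.5, 26.4 and 23.3 CPM in the controls. Only control 1 lay within the MERKO range, and the log2 fold change was -0.20 (-0.47 to 0.07, adjusted p = 0.716).

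A ratio taken within a library does not depend on the scaling between libraries. There were 1.94, 3.13 and 2.14 counts of Irs1 per count of Irs2 in the MERKO libraries against 1.67, 1.96 and 1.79 in the controls. MERKO 1 fell just below control 2, and the other MERKO libraries lay above all controls. The mean log2 ratio was higher by 0.38 in MERKO (exact two-sided permutation p = 0.2, and 0.8 adjusted over the 4 ratios tested, with 0.1 as the smallest p that 3 against 3 libraries allow). Irs1 shares 2822 exon bases with the opposite-strand gene Gm9747, Irs2 162 with 9530052E02Rik and Slc2a1 105 with Gm12868, also on opposite strands. These partners had at most 4 counts in any library, and reads of the 2 strands cannot be told apart where the strand setting is not known. How reads on shared bases were counted is not given either. Such reads may be missing from the counts of Irs1, whose exons span 9144 bases, and of Irs2 and Slc2a1.

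Pik3r1 encodes the p85α regulatory subunit of PI3-kinase, which stabilises the catalytic subunit and holds it at IRS proteins. The gene (ENSMUSG00000041417.15, chromosome 13, 101680563 to 101768217, minus strand) had 92.0, 64.7 and 75.6 CPM in the MERKO libraries against 105, 87.6 and 99.9 CPM in the controls. MERKO 2 and MERKO 3 lay below every control, while MERKO 1 lay above control 2. Means were 77.5 ± 13.7 and 97.3 ± 8.75 CPM (SD, n = 3 each), and the log2 fold change of -0.33 had a 95% interval of -0.65 to -0.01 (unadjusted p = 0.0466, adjusted p = 0.695, edgeR). The value was -0.21 without MERKO 2 and -0.47 without MERKO 1. Counts from the 2 starts shown above, which give long and short protein forms, are summed in the table, so the forms cannot be told apart.

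Akt2 encodes the AKT kinase most tied to glucose uptake. It (ENSMUSG00000004056.15, chromosome 7, 27591552 to 27640826, plus strand) had 107, 120 and 127.8 CPM in the MERKO libraries against 128.05, 141 and 142 CPM in the controls. The groups did not overlap, although MERKO 3 and control 1 were nearly level. Means were 118 ± 10.7 and 137 ± 7.86 CPM, and the log2 fold change was -0.21 (-0.45 to 0.03, adjusted p = 0.713, edgeR). This interval was the narrowest among the members.

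For both genes of Rab GTPase-activating proteins, the means of the genotypes differed by less than the SD within either group. Tbc1d1 (ENSMUSG00000029174.18, chromosome 5, 64156305 to 64351486, plus strand) had 112, 68.4 and 78.2 CPM in the MERKO libraries against 90.8, 55.6 and 61.7 CPM in the controls. The highest library of each genotype was the one with high slow-fibre markers, MERKO 1 and control 1. The same was true of Tbc1d4, Pik3r1, Slc2a4, Slc2a1 and Hk2. The part of the slow-fibre difference in these levels was not tested. The log2 fold change of Tbc1d1 was 0.32 (-0.21 to 0.85, adjusted p = 0.772, edgeR). It was 0.08 without MERKO 1 and 0.56 without control 1, and again 0.32 (adjusted p = 0.552) with both left out. Tbc1d4 (ENSMUSG00000033083.16, chromosome 14, 101442360 to 101609191, minus strand) had 61.9, 48.4 and 50.1 CPM in the MERKO libraries against 57.8, 54.8 and 38.9 CPM in the controls. The groups overlapped, and the log2 fold change of 0.09 (-0.29 to 0.47, adjusted p = 0.917) became -0.03 without MERKO 1 and -0.07 without control 3. There were 1.81, 1.41 and 1.56 counts of Tbc1d1 per count of Tbc1d4 in MERKO and 1.57, 1.01 and 1.58 in control, a mean log2 difference of 0.22 (exact permutation p = 0.6, adjusted over 4 ratios 0.8).

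Of the transporters, Slc2a4 (ENSMUSG00000018566.14, chromosome 11, 69942539 to 69948188, minus strand) had 406, 378 and 378 CPM in the MERKO libraries against 444, 393 and 353 CPM in the controls. The MERKO libraries all lay inside the control range, and no member varied less over the 6 libraries (SD of 0.11 on the log2 scale). The log2 fold change was -0.04 (adjusted p = 0.959, edgeR), and its 95% interval covers folds from 0.805 to 1.18. It turned to 0.05 without control 1 and 0.02 without MERKO 1 and control 1. Adipocytes also express Slc2a4, and the 7 adipocyte markers tested all had negative log2 fold changes, of which 0 passed. Control 2, with the highest sum of adipocyte markers (476 CPM), had the middle Slc2a4 level of its group. The part of adipocytes in the Slc2a4 level was not tested.

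Slc2a1 (ENSMUSG00000028645.11, chromosome 4, 119108711 to 119137983, plus strand) had 5.53, 4.29 and 4.14 CPM in the MERKO libraries against 6.01, 3.63 and 4.25 CPM in the controls, from 46 to 231 counts. The first library was the highest in each genotype, and the groups overlapped throughout. Its log2 fold change was 0.01 (-0.49 to 0.51, adjusted p = 0.994, edgeR), with -0.15 without MERKO 1, -0.11 without control 2 and -0.06 without control 3. GLUT1 is also made by endothelium and the sheath of nerves. The 8 nerve markers all had positive log2 fold changes, as did 4 of 7 endothelial markers, with 0 passing. Endothelial markers summed to 208, 140 and 160 CPM in MERKO and to 190, 159 and 134 CPM in control. The nerve markers summed to 63.5, 39.0 and 40.7 CPM in MERKO and to 37.3, 36.6 and 28.03 CPM in control, groups that did not overlap. The part of endothelium and nerve in the Slc2a1 level was not tested. In each library there were between 0.00923 and 0.0136 counts of Slc2a1 per count of Slc2a4, and the mean log2 ratio differed by 0.06 (exact permutation p = 0.9, adjusted over 4 ratios 0.9).

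Hk2 (ENSMUSG00000000628.10, chromosome 6, 82725025 to 82774454, minus strand) had 377, 316 and 363 CPM in the MERKO libraries against 366, 295 and 234 CPM in the controls. MERKO 1 was the highest and control 3 the lowest, with control 1 among the MERKO values. Means were 352 ± 31.8 and 299 ± 65.9 CPM, and the log2 fold change was 0.24 (-0.15 to 0.63, adjusted p = 0.764, edgeR), which was 0.09 without control 3 and 0.41 without control 1. Hk1, the hexokinase of most other tissues, had 11.3, 7.24 and 7.07 CPM in the MERKO libraries against 6.01, 6.39 and 5.73 CPM in the controls. Its groups did not overlap, with a log2 fold change of 0.52 (SE 0.20, unadjusted p = 0.029, adjusted p = 0.683), which was 0.25 without MERKO 1. The nerve, slow-fibre and tendon markers were also high in MERKO 1, and their part in this was not tested. There were 33.3, 43.7 and 51.3 counts of Hk2 per count of Hk1 in MERKO and 60.9, 46.2 and 40.8 in control, a mean log2 difference of -0.21 (exact permutation p = 0.5, adjusted over 4 ratios 0.8), and of 0.12 without MERKO 1 and control 1.

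**Figure D3:**
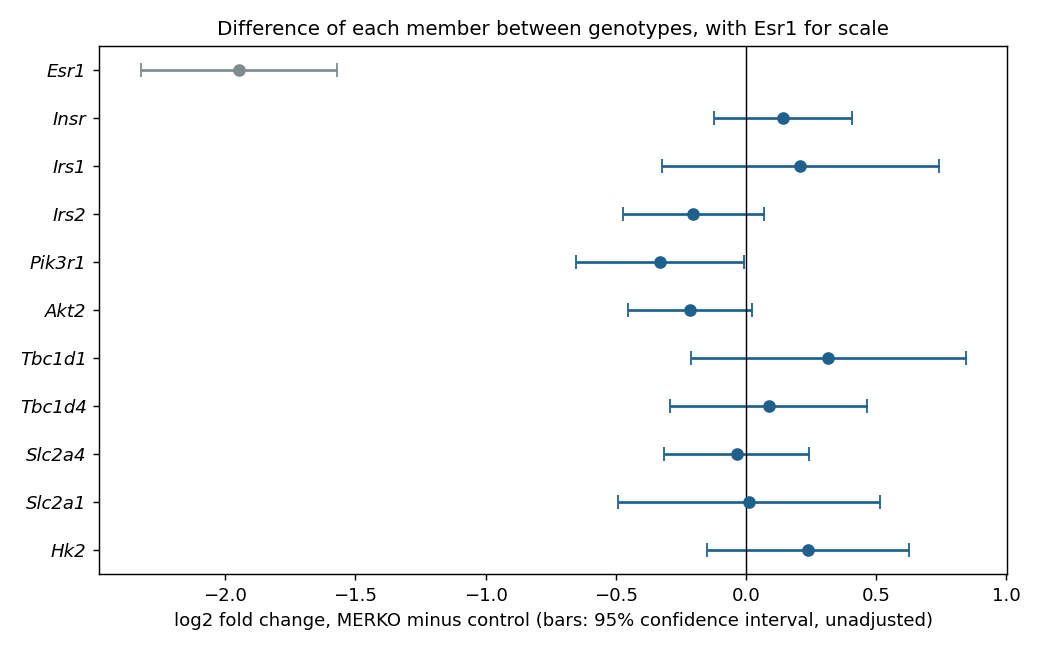
Log2 fold change of each member, MERKO minus control, as a point with its unadjusted 95% confidence interval, and Esr1 in grey for scale. The intervals of 9 members cross 0, that of Pik3r1 ends at -0.01, and Esr1 lies at -1.95.

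The members varied among themselves in how they followed the libraries. The 3 with the largest SD of log2 CPM over the 6 libraries were Tbc1d1 (0.37), Irs1 (0.35) and Slc2a1 (0.27). Tbc1d1 and Slc2a1 were above their own means in MERKO 1 and control 1, by 0.57 and 0.26 for Tbc1d1 and by 0.28 and 0.39 for Slc2a1. So were Tbc1d4 (0.27 and 0.17), Hk2 (0.23 and 0.19), Pik3r1 (0.09 and 0.28) and Slc2a4 (0.055 and 0.183). Irs1 had the opposite arrangement, at -0.29 in MERKO 1 and -0.39 in control 1 and at 0.58 in MERKO 2. Irs2 was also below its mean in MERKO 1 and control 1 (-0.21 and -0.09), while Insr and Akt2 differed in sign between them. Hk2 was lowest in control 3, at -0.46. Likeness of pattern was measured as the root mean square difference of centred log2 CPM over the 6 libraries, against 6995 or 6996 genes. By it, the genes nearest to Tbc1d1 were Bcl2l1, which encodes an inhibitor of apoptosis (0.03), and Galt, an enzyme of galactose metabolism (0.05). Sfmbt1 (0.09) and Jarid2 (0.10), both chromatin regulators, were nearest to Irs1. The nearest to Slc2a1 were Prdx5, a peroxiredoxin (0.05), and Mief2, a mitochondrial fission adaptor (0.05).

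**Figure D4:**
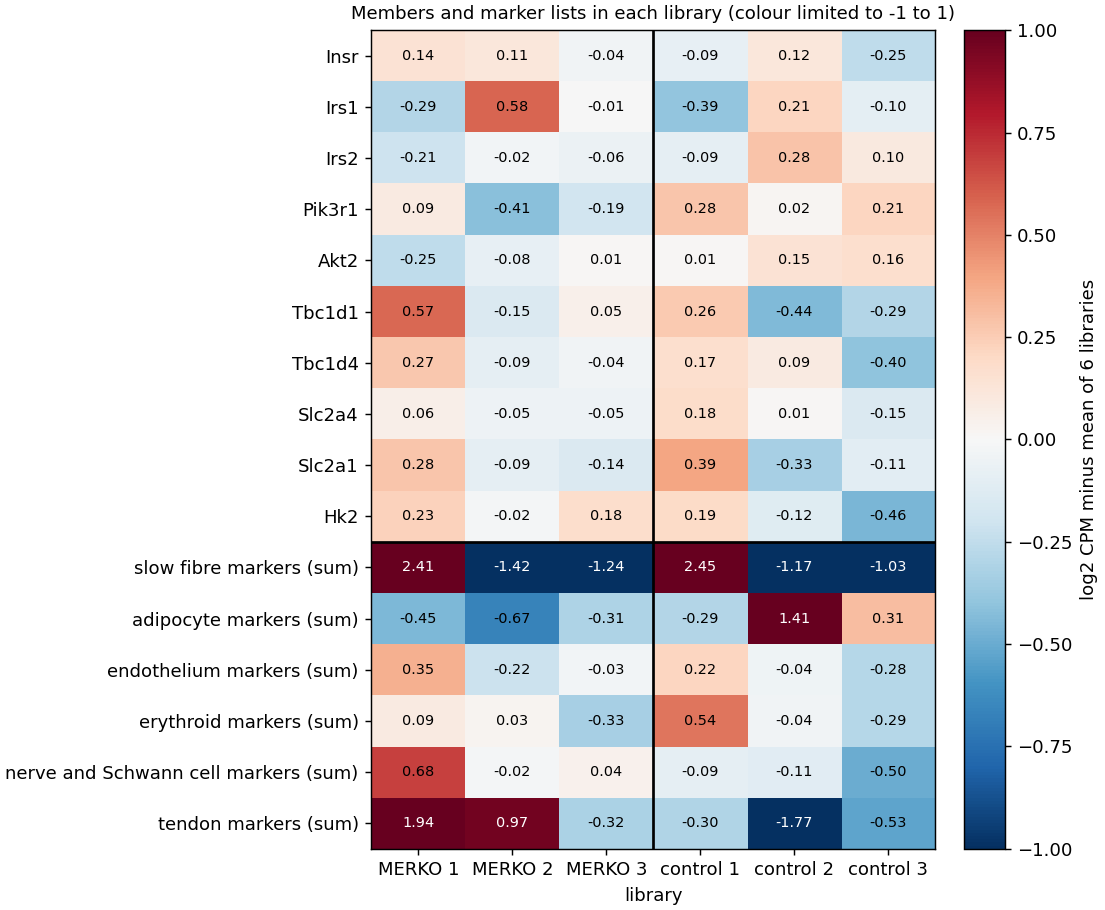
Each cell gives the log2 CPM of a member, or of the summed CPM of a marker list, minus the mean of the 6 libraries (columns), with colour limited to -1 to 1. In MERKO 1 and control 1, Tbc1d1, Tbc1d4, Slc2a1, Slc2a4, Pik3r1 and Hk2 are above their means. Irs1 and Irs2 are below theirs in these libraries, whose slow-fibre sums stand at 2.41 and 2.45.

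The wider pathway was described with 83 further genes grouped by role, of which 81 passed the filter on low counts. Hkdc1, at 0 counts in every library, and Socs1 did not pass it. None of the 81 passed the threshold in the edgeR test, 0 passed with DESeq2 or limma-voom, and 6, or 7.41%, had an unadjusted p under 0.05 (7.04% of all genes tested). There were 45 positive and 36 negative log2 fold changes, with a median of 0.02 beside 0.01 over all genes. The groups did not overlap in 12 of the 81, 6 in each direction, against 13.3% of all genes tested. From each role the 2 genes with the lowest p are given.

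Upstream of AKT, Igf1r, the related IGF-1 receptor, had a log2 fold change of 0.20 (SE 0.14). Among 5 other docking and adaptor genes, Gab1, a docking protein of the IRS type, averaged 14.5 ± 1.42 CPM (SD, n = 3) in MERKO against 11.9 ± 0.83 CPM in control, a log2 fold change of 0.28 (adjusted p = 0.687, edgeR). Sh2b1, an adaptor at the receptor, had a log2 fold change of 0.17. Of 6 other PI3-kinase genes, the catalytic subunit gene Pik3cd, best known in white blood cells, had 7.085, 8.502 and 9.91 CPM in the MERKO libraries against 6.26, 5.76 and 6.10 CPM in the controls. Its MERKO libraries lay above all controls (log2 fold change 0.48, SE 0.15, adjusted p = 0.667), and Pik3cb had 0.25. Pik3ca, the main catalytic partner of p85α in insulin action and named here after its values were seen, had a log2 fold change of -0.05 (SE 0.09).

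At the level of AKT, Prkcz, an atypical protein kinase C, had 2.37, 3.62 and 1.251 CPM in the MERKO libraries against 1.22, 1.18 and 1.14 CPM in the controls. MERKO 3 lay close to the controls (log2 fold change 1.00, SE 0.37, adjusted p = 0.683, edgeR), and the log2 fold change was 0.65 without MERKO 2. Rictor, the defining subunit of the mTORC2 complex that phosphorylates AKT, had a log2 fold change of -0.22 (SE 0.11, adjusted p = 0.713). Among 7 small GTPases that act on the vesicles, the lowest p belonged to Rala at -0.15 and Rab10 at -0.13, neither with an adjusted p below 0.774.

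For the GLUT4 vesicle and its fusion, 5 of 10 genes had positive and 5 negative values. Trarg1, a GLUT4 trafficking regulator of fat and muscle, had 2.68, 1.68 and 2.12 CPM in the MERKO libraries against 2.69, 8.996 and 3.03 CPM in the controls (log2 fold change -1.07, SE 0.47, adjusted p = 0.706, edgeR). The log2 fold change was -0.37 without control 2. Its highest value was in control 2, the library with the highest adipocyte markers, whose part in this was not tested. Lrp1, a vesicle receptor, had a log2 fold change of 0.23 (SE 0.12). The 4 other transporter genes tested lay between -0.05 and 0.14, with the lowest p for Slc2a8 at 0.14 and Slc2a12 at 0.03.

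Among 14 inhibitors, Ptprf, a receptor tyrosine phosphatase that can act on the insulin receptor, had 3.47, 1.60 and 3.03 CPM in the MERKO libraries against 1.47, 1.42 and 1.27 CPM in the controls. Its MERKO libraries lay above all controls, though the p did not pass (log2 fold change 1.01, SE 0.30, adjusted p = 0.654, edgeR). Socs3, a feedback inhibitor of cytokine and insulin signalling, had groups that overlapped and a log2 fold change of 0.56 (SE 0.27, adjusted p = 0.713, edgeR). The value was 0.90 without control 3, 0.39 without control 1 and 0.31 without both MERKO 1 and control 1. Of 12 genes downstream of AKT, Eif4ebp1, the translation repressor 4E-BP1, had 23.4, 22.8 and 28.8 CPM in the MERKO libraries against 32.4, 30.4 and 34.9 CPM in the controls. Each MERKO library lay below each control (log2 fold change -0.38, SE 0.12, adjusted p = 0.654), and Rptor, the defining subunit of mTORC1, had 0.29 (SE 0.13). AMPK, which drives glucose uptake without insulin, had 2 subunit genes with positive and 5 with negative values, the lowest p being those of Prkab1 at -0.19 and Prkag2 at 0.12. The 5 transcription factors and coactivators of Slc2a4 lay between -0.16 and 0.09, with Mef2d at 0.09 and Klf15 at -0.16.

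**Figure D5:**
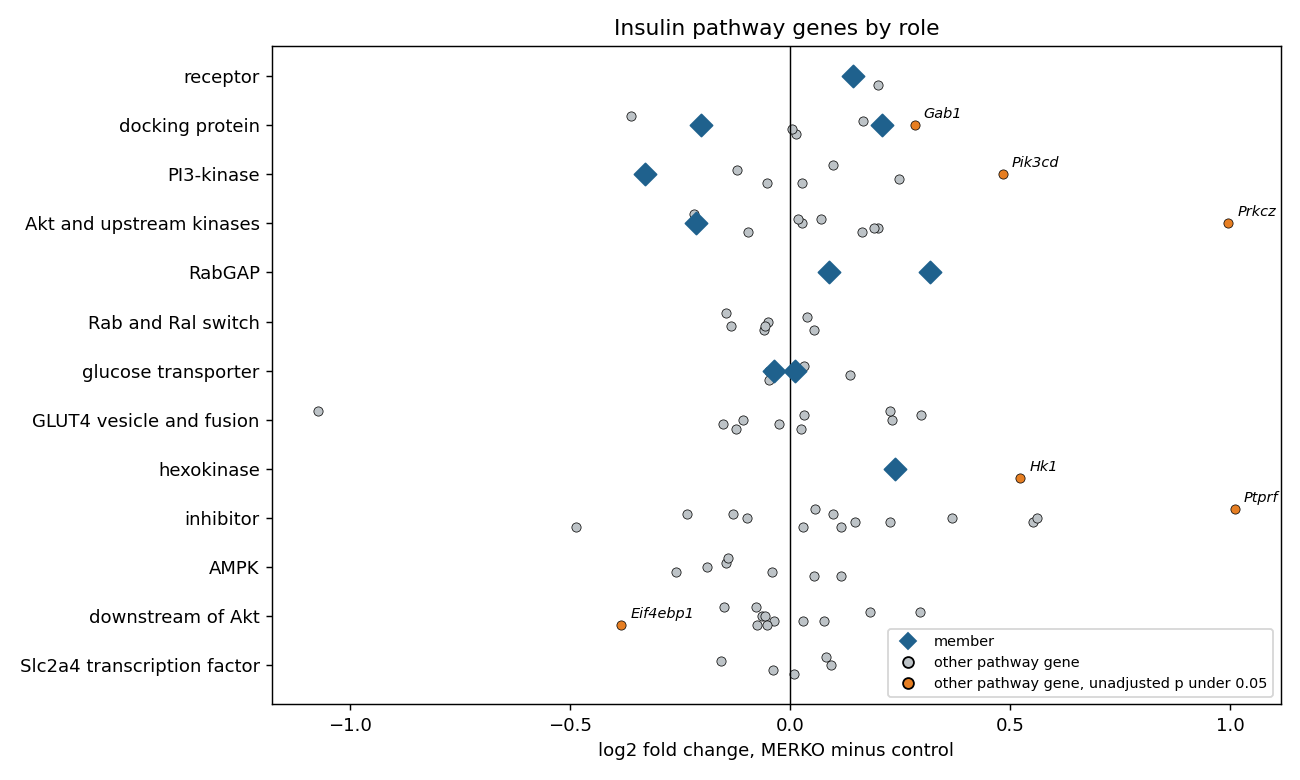
Log2 fold change, MERKO minus control, of the 10 members (blue diamonds) and of the 81 other pathway genes tested (circles, orange where the unadjusted p is under 0.05), by role. The members lie between -0.33 and 0.32, and the circles spread to both sides of 0 in most roles, with none past the adjusted threshold.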

How the data were processed

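RNA of quadriceps was isolated with Trizol and made into libraries with the Illumina TruSeq kit, per the labels' protocols. The authors deposited raw read counts per gene, with versioned Ensembl identifiers. STAR 2.5.2b, HTSeq 0.9.1 and DESeq, with builds mm10 and GRCm38, appear in the submitters' processing notes. Their roles, the gene annotation, strandedness and handling of multiply placed reads remain not given in the sources used here. Symbols, coordinates and exon lengths came from GENCODE M21 (GRCm38), matched without version for 48435 of 48795 genes, and promoters from RefSeq (GRCm38.p6).

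Groups came from the sample titles. Genotype was the sole term of the edgeR 4.0.16 quasi-likelihood test (R 4.3.3, filterByExpr, TMM scaling), with Benjamini-Hochberg adjustment over 13628 genes. CPM values use the TMM factors. The biological coefficient of variation was 18.6%. The code was tested on simulated counts with known changes.

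The members and gene lists were chosen with earlier results of these data known. Named genes were the members, Esr1, the 2 lowest-p other genes per role, and the genes nearest to the 3 most variable members (average log2 CPM of at least 3, prior count 2). Alternatives were DESeq2 1.42.0, limma-voom (limma 3.58.1), RLE or no composition factors, 2 other filters, removal of mitochondrial DNA genes and the rRNA model, a replicate block, and leaving out libraries. Any 2 libraries differed by far more than sampling noise (lowest chi-square per degree of freedom 25.7, for MERKO 2 with control 2). The lowest value within a genotype was 109.6, for MERKO 2 with MERKO 3. MERKO 1 with control 1 stood at 59.6 and MERKO 3 with control 3 at 609.8.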

Additional observations from a re-analysis of the deposited data

How the results depend on the processing

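None of the 10 members and none of the other pathway genes was called under any of the 15 alternatives. The smallest adjusted p of a member was 0.144, for Tbc1d1 with the replicate number as a block. Insr, Irs2, Pik3r1, Akt2, Tbc1d1 and Hk2 kept their direction in 15 of 15. Directions reversed when each library was left out in turn for Irs1 (-0.0603 to 0.389), Tbc1d4 (-0.0728 to 0.198), Slc2a4 (-0.113 to 0.0523), Slc2a1 (-0.148 to 0.236), Slc2a12 (-0.0616 to 0.0866) and the log2 ratio of Slc2a1 to Slc2a4 (-0.0967 to 0.179). Without MERKO 1 and control 1, Slc2a4 stood at 0.0192, Slc2a12 at -0.0677, Rab10 at 0.00572 and the log2 ratio of Hk2 to Hk1 at 0.124. Without composition factors the median of all genes moved by -0.114, with Slc2a1 at -0.0887, Prkag2 at -0.0122, Mef2d at -0.0232 and Slc2a12 at -0.0658. The cause of these reversals was not tested. The number of genes called over the whole table was 1 in the test as reported, 23 with DESeq2, 93 without composition factors, 140 without a filter, 51 with the replicate block, 7 without MERKO 1 and control 1, and 0 to 11 when any library was left out, where Esr1 ran from -2.08 to -1.84. In the labels, same-numbered libraries share only a number. Their deviations from the group means correlated at 0.448, 0.163 and 0.0612 across genes, and not every library correlated best with its own number. MERKO 1 and control 1 had the high slow-fibre sums (511 and 524 CPM). MERKO 2 and control 2 had the largest rRNA shares (32.4% and 27.7%). Whether same-numbered libraries were handled together was not tested. With the block, 0 members were called and Pik3r1 had an adjusted p of 0.162. The lowest counts were 46 among the members (Slc2a1, control 2) and 15 among the other tested genes named from the pathway (Prkcz, control 2).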
